A study of Mus musculus with 6 samples.

Results

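Proteasome genes were compared in inguinal white adipose tissue, the fat under the skin of the mouse groin, between mice that lack Cdo1 in adipose tissue and their controls. Members were the protein-coding genes whose names start with Psma to Psmg and a number: 50 of the 54532 genes in the table. By name these were 16 genes of the core particle (Psma and Psmb), 3 genes of its immune form (Psmb8, Psmb9 and Psmb10), 25 genes of a regulatory class (Psmc, Psmd and Psme), and 5 others (Psmf1 and Psmg). The remaining name, Psmc3ip, belongs to a meiotic recombination factor that is no proteasome subunit. After a filter on low counts 48 were tested, among 16623 genes in all. The untested members were Psma8, an alpha subunit known from testis, and Psmb11, the thymus-specific beta subunit. Levels are given as CPM, a gene's counts per 1000000 of the library's size after that size was scaled between libraries. Psma8 had 0.250 to 0.494 CPM in Cdo1AKO and 0.0535 to 0.368 CPM in control. Psmb11 had at most 0.04999 CPM in Cdo1AKO and 0.107 CPM in control.

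Cdo1 encodes cysteine dioxygenase, which oxidises cysteine on the route to taurine. In the 3 Cdo1AKO samples this gene was knocked out in adipose tissue, with a Cre line not given in the sources used here. The 3 control samples came from Cdo1flox/flox mice, whose genotype field reads WT. Mice of both groups went onto a high fat diet at 8 weeks of age and stayed on it for 15 weeks, with strain and sex not given in the sources used here.

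The proteasome is the barrel-shaped protease that degrades proteins tagged with ubiquitin. Its core particle stacks outer rings of alpha subunits on inner rings of beta subunits, and Psmb5, Psmb6 and Psmb7 carry the catalytic sites. A regulatory particle made of ATPases (Psmc) and further subunits (Psmd) recognises ubiquitin chains, unfolds the substrate and feeds it into the core. In leukocytes, and in other cells under interferon-gamma, newly built cores carry Psmb8, Psmb9 and Psmb10 in place of Psmb5, Psmb6 and Psmb7. That immunoproteasome, often capped by the Psme1 and Psme2 activator, yields peptides suited to MHC class I. Adipocytes are also known to depend on proteasome supply under the transcription factor Nfe2l1, above all in brown fat.

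The libraries held 16275184 to 19205804 counts. Cdo1 itself had 123, 392 and 134 CPM in Cdo1AKO 1 to 3 and 887, 432 and 631 CPM in control 1 to 3, so the groups did not overlap, but the log2 fold change of -1.59 ± 0.53 (SE) did not pass (edgeR's quasi-likelihood test, adjusted p = 0.416). Libraries stood apart within both groups. Cdo1AKO 2 and control 1 nearly lacked lymph node and B cell transcripts: the median of those markers was 0.418 CPM in Cdo1AKO 2 and 0.0614 CPM in control 1, against 54.6 to 92.0 CPM in the other 4 libraries. The first principal component, with 68.5% of the variance, placed these 2 libraries together. Cdo1AKO 1 and 3 were unusually alike, differing by 5.59 times the sampling variance, against 196 to 204 times for Cdo1AKO 2 with them and 23.1 to 81.5 times between controls. The adipocyte markers were abundant in every library, with summed levels of 19527 to 45411 CPM in Cdo1AKO and 29853 to 43007 CPM in control.

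Start regions of 4 members are shown here because these genes are among those the results turn on: Psmb5, a constitutive catalytic subunit, and Psmb8, Psmb9 and Psme1 of the immune form. The sequences are RefSeq windows on GRCm38.p6 (mm10), 250 bases before and 50 bases after the annotated start, read on the gene's strand. RefSeq's start lies downstream of the gene start listed in the count table, by 27 bases for Psmb5, 474 for Psmb8, 434 for Psmb9 and 371 for Psme1, so the last 3 windows lie around an inner start. Capitals mark matches to any of 4 motifs searched on both strands: GAAANNGAAA (core of the interferon-stimulated response element), TTCNNNGAA (the STAT site, its own reverse complement), TGACNNNGC (core of the antioxidant element read by Nfe2l1 and Nfe2l2) and CCAAT (the NF-Y box). None of these motifs matched at overlapping positions in the 4 windows.
Psmb5, chr14:54617946-54618245, minus strand: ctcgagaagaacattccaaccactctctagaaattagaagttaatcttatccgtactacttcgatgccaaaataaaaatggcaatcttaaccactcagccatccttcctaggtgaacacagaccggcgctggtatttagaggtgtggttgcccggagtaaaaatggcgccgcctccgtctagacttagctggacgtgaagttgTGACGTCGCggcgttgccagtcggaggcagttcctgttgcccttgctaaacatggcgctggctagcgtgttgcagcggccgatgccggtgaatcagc
Psmb8, chr17:34197945-34198244, plus strand: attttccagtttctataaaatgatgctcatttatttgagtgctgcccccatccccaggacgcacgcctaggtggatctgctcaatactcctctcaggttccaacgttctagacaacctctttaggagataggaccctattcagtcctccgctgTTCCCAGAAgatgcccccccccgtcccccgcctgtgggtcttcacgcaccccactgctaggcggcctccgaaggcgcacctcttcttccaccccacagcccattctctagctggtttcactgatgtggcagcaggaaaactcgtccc
Psmb9, chr17:34187281-34187580, minus strand: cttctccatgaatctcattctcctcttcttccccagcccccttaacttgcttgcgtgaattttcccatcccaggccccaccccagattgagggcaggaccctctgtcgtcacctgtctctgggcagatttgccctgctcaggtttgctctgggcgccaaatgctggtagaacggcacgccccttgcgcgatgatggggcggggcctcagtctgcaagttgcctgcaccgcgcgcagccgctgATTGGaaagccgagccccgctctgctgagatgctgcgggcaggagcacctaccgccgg
Psme1, chr14:55578244-55578543, plus strand: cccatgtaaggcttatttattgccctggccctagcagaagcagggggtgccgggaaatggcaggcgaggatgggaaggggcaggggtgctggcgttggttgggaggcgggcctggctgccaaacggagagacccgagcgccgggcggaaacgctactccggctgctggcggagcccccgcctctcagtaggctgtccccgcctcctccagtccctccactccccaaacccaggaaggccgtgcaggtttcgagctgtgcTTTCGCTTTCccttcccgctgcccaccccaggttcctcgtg
The capitals lie 47 bases before the start in Psmb5 (TGACNNNGC), 97 bases before it in Psmb8 (TTCNNNGAA), 8 bases before it in Psmb9 (CCAAT, on the other strand) and 9 bases after it in Psme1 (GAAANNGAAA, on the other strand).

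RefSeq windows were held for 42 of the 50 members, 45 windows in all, of which 30 start within 50 bases of the gene start in the count table. GAAANNGAAA was in 5 of these 45 (11.1%), those of Psmb3, Psmd4, Psmd9, Psme1 and Psmg4, against 3.44% of all 32851 windows. TTCNNNGAA was in 3 (6.67%) against 8.30% of all, TGACNNNGC in 6 (13.3%) against 12.4%, and CCAAT in 15 (33.3%) against 37.4%. Of the immune subunits, Psmb10 held none of these letters in its window. A match is a run of letters and not a shown binding site. Psmb8 and Psmb9 lie on chromosome 17, within the MHC, with the peptide transporter gene Tap1 between them. Tap1 starts head to head with Psmb9 and overlaps it by 212 bases, and it ends 495 bases short of Psmb8. Psme1 and Psme2 also neighbour each other, on chromosome 14 with 5911 bases between them.

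No proteasome gene passed the test between Cdo1AKO and control, in either direction. With edgeR 0 of 48 tested members passed the threshold of 0.05 on the adjusted p, and so did 0% of all genes. Before adjustment, 2 members were under 0.05, both of them higher, against 10.4% of all genes (4.66% higher and 5.71% lower). DESeq2, another count test, called 0 members and 1.55% of all genes. The authors' deposited table listed all 50 members, with 0 under 0.05 after adjustment, against 275 of the 27492 genes with an adjusted p there. The members' log2 fold changes of Cdo1AKO over control ran from -0.35 (Psmd11) to 0.46 (Psmd10), with 26 above 0 (54.2%, against 56% of all genes) and 22 below. Their median was 0.071, next to 0.058 for all genes tested.

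The 3 named classes had medians on both sides of 0. The core subunits had a median of -0.028 (14 tested, 5 above 0), the regulatory genes 0.068 (25 tested, 13 above 0) and the immune subunits 0.27 (3 tested, 3 above 0). The regulatory class also holds the activators (Psme) and the assembly factors Psmd5, Psmd9 and Psmd10. Its 17 base and lid genes alone had a median of -0.078 (6 above 0), on the same side of 0 as the core. All 3 class medians changed sign with single libraries left out. The core median ranged from -0.30 without Cdo1AKO 2 to 0.059 without Cdo1AKO 1 and was also above 0 without Cdo1AKO 3 or control 1. The regulatory median ranged from -0.22 without Cdo1AKO 2 to 0.17 without Cdo1AKO 1, and the immune median from -0.033 without Cdo1AKO 3 to 0.57 without Cdo1AKO 2. The groups did not overlap for 3 members, Psmb10, Psmd10 and Psme2b, all higher in Cdo1AKO, against 8.87% of all genes higher. No member was lower without overlap, against 9.73% of all genes.

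**Figure D1:**
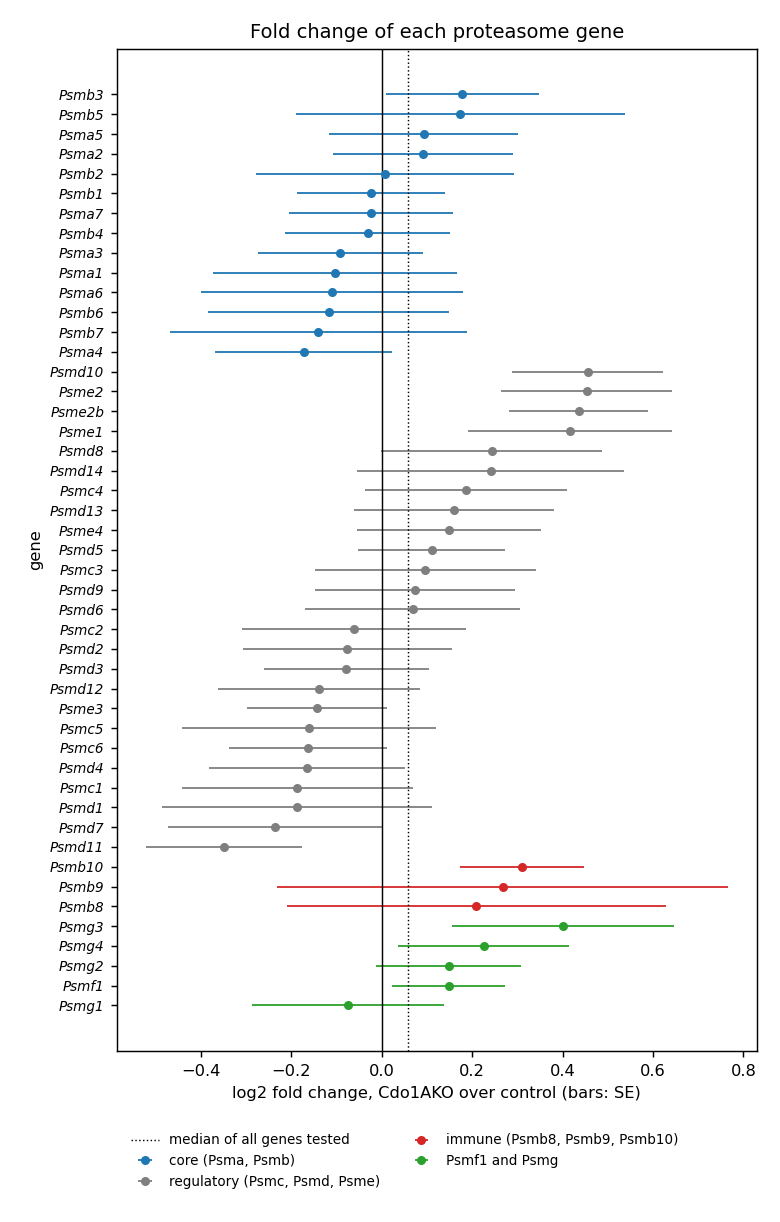
Log2 fold change of Cdo1AKO over control for the 47 tested proteasome genes other than Psmc3ip, with SE bars, grouped by class. The values lie between -0.35 and 0.46, around the dotted median of all genes tested at 0.058, and the bars of Psmb8 and Psmb9 are the widest.

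The libraries differed in the balance of the constitutive and the immune form. The 31 tested subunits of the core and regulatory particle (alpha ring, constitutive beta ring, ATPases, base and lid) were mostly high in Cdo1AKO 2 and low in Cdo1AKO 1 and 3. Relative to the mean of the controls, their median log2 level was -0.35, 0.39 and -0.31 in Cdo1AKO 1 to 3 and 0.15, -0.089 and -0.084 in control 1 to 3. The median over all genes tested lay between 0.0042 and 0.024 in the 6 libraries. Scaled by the library totals alone, the subunits stood at -0.15, 0.21 and -0.10 in Cdo1AKO 1 to 3, while all genes shifted to 0.21, -0.17 and 0.22. Relative to all genes, the subunits thus kept their direction.

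Cdo1AKO 2 was the highest of the 6 libraries for 24 of these 31 subunits (77.4%), against 31.7% of all genes. Cdo1AKO 1 and 3 both lay below every control for 25 of the 31 (80.6%), against 27% of all genes. Cdo1AKO 2 lay above every control for 24 (77.4%), against 36.3% of all genes. The groups overlapped for all 31. Both Cdo1AKO 1 and 3 lay above every control for 0 of the 31 but for all 3 immune subunits, against 28% of all genes. These counts describe 6 libraries and carry no test, and subunits of a library share its makeup.

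**Figure D2:**
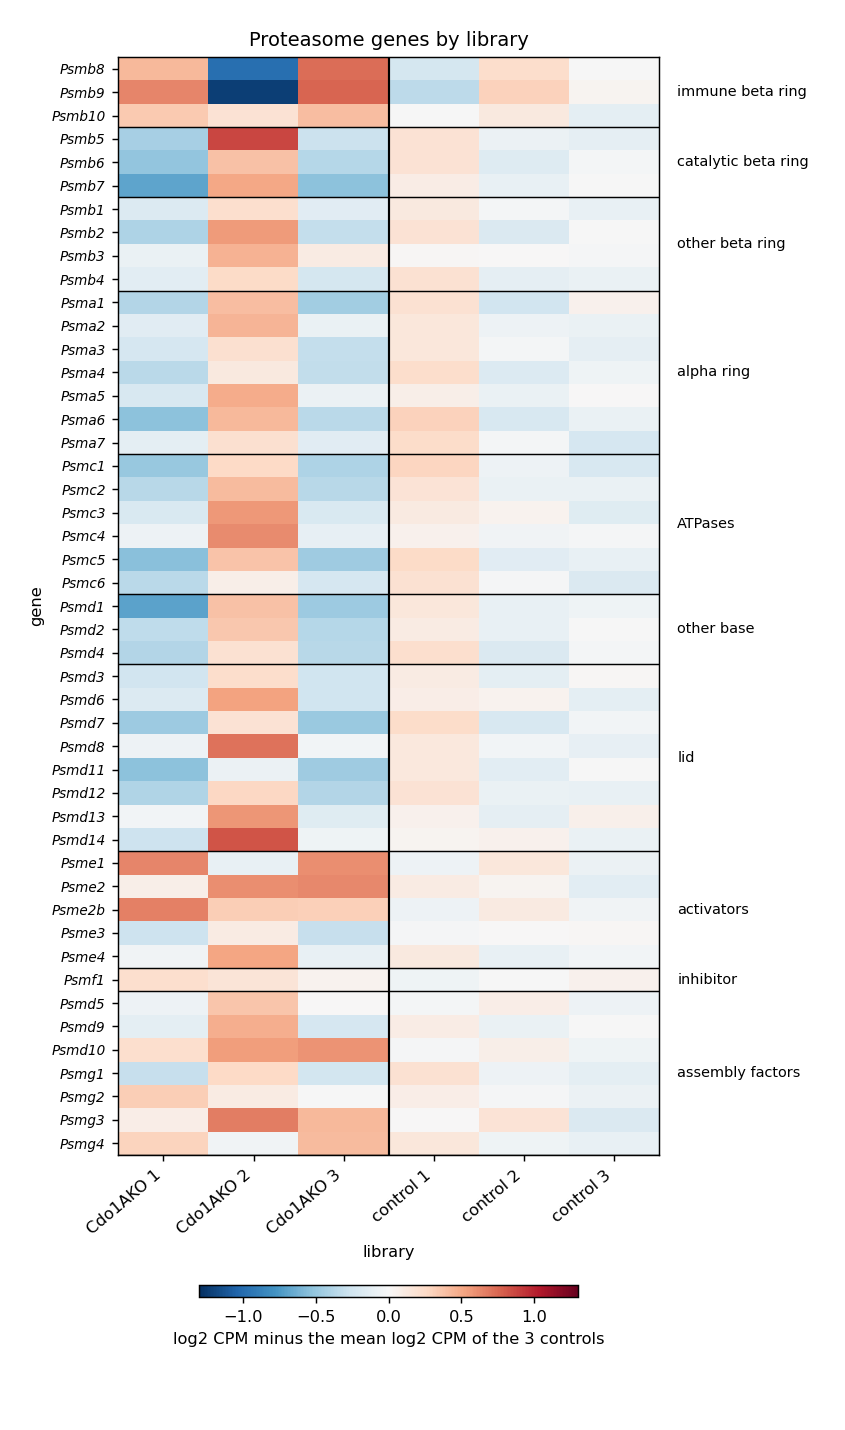
Log2 CPM of each tested proteasome gene in each library, minus the mean log2 CPM of the 3 controls (colour), with genes grouped by role down the page. Most core, ATPase, base and lid genes are red in Cdo1AKO 2 and blue in Cdo1AKO 1 and 3, while Psmb8 and Psmb9 show the opposite.

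Among the alpha ring genes, which form the gate of the core, the members with the smallest p were Psma4 and Psma3. Psma4 had 78.8, 109.6 and 80.5 CPM in Cdo1AKO 1 to 3 and 118, 88.5 and 96.7 CPM in control 1 to 3 (log2 fold change -0.17 ± 0.19 SE, edgeR adjusted p = 0.780). Psma3 had 66.2, 88.9 and 62.0 CPM in Cdo1AKO and 85.2, 75.4 and 70.7 CPM in control (-0.092 ± 0.18, adjusted p = 0.878). In both genes Cdo1AKO 1 and 3 were near each other and Cdo1AKO 2 lay among or above the controls. All 7 tested alpha genes had log2 fold changes between -0.17 and 0.093.

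The beta subunits without a catalytic site, Psmb1 to Psmb4, were led by Psmb3. It had 71.3, 103.6 and 81.6 CPM in Cdo1AKO 1 to 3 and 76.2, 75.8 and 74.6 CPM in control 1 to 3 (0.18 ± 0.17, edgeR adjusted p = 0.733). Its controls hardly differed, and only Cdo1AKO 1 lay below them. Psmb4 had 107, 139 and 100.2 CPM in Cdo1AKO and 135, 109 and 111 CPM in control (-0.031 ± 0.18, adjusted p = 0.962), with groups that overlapped.

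The constitutive catalytic subunits carried the pattern most clearly. Psmb5, the chymotrypsin-like site and the main target of proteasome inhibitor drugs (at 54614119 to 54618022 on the minus strand of chromosome 14 in mm10), had 49.3, 121 and 54.7 CPM in Cdo1AKO 1 to 3 and 75.7, 62.9 and 61.2 CPM in control 1 to 3. Cdo1AKO 2 was above every control and the other Cdo1AKO libraries were below every control, which left a log2 fold change of 0.17 ± 0.36 (edgeR adjusted p = 0.886). Psmb6, the caspase-like site (at 70525367 to 70527858 on the plus strand of chromosome 11), had 76.7, 142 and 84.4 CPM in Cdo1AKO and 124, 97.2 and 107 CPM in control (-0.12 ± 0.27, adjusted p = 0.896). Psmb7, the trypsin-like site (at 38588036 to 38644087 on the minus strand of chromosome 2), had 44.99, 102 and 49.9 CPM in Cdo1AKO and 77.4, 67.8 and 71.8 CPM in control (-0.14 ± 0.33, adjusted p = 0.897). Both, like Psmb5, had Cdo1AKO 2 above all controls and Cdo1AKO 1 and 3 below them. Of Psmb7's annotated exon bases, 405 (11.8%) are shared with Nek6 on the opposite strand.

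Psmb8, which replaces Psmb5 (at 34197721 to 34201454 on the plus strand of chromosome 17), showed the reverse. It had 114, 43.4 and 141 CPM in Cdo1AKO 1 to 3 and 72.7, 100.4 and 85.4 CPM in control 1 to 3. Here Cdo1AKO 2 was below every control and Cdo1AKO 1 and 3 were above every control, and the log2 fold change of 0.21 ± 0.42 did not pass (edgeR adjusted p = 0.879). Psmb9, which replaces Psmb6 (at 34181988 to 34187764 on the minus strand of chromosome 17), had 92.9, 25.7 and 101 CPM in Cdo1AKO and 47.2, 73.7 and 61.4 CPM in control (0.27 ± 0.50, adjusted p = 0.868). Its 6 libraries fell in the same order as those of Psmb8, with control 1 the lowest control in both.

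Psmb10, which replaces Psmb7 (at 105935735 to 105938444 on the minus strand of chromosome 8), was steadier. It had 86.9, 78.3 and 90.6 CPM in Cdo1AKO 1 to 3 and 68.5, 75.1 and 62.7 CPM in control 1 to 3, a mean of 85.2 ± 6.30 CPM against 68.8 ± 6.22 CPM (SD, n = 3 each). Every Cdo1AKO library lay above every control, Cdo1AKO 2 by the least. The log2 fold change of 0.31 ± 0.14 did not pass over all genes (edgeR adjusted p = 0.510), and it stayed between 0.24 and 0.37 when any 1 library was left out. No library had a low Psmb10 level like those of Psmb8 and Psmb9 in Cdo1AKO 2.

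**Figure D3:**
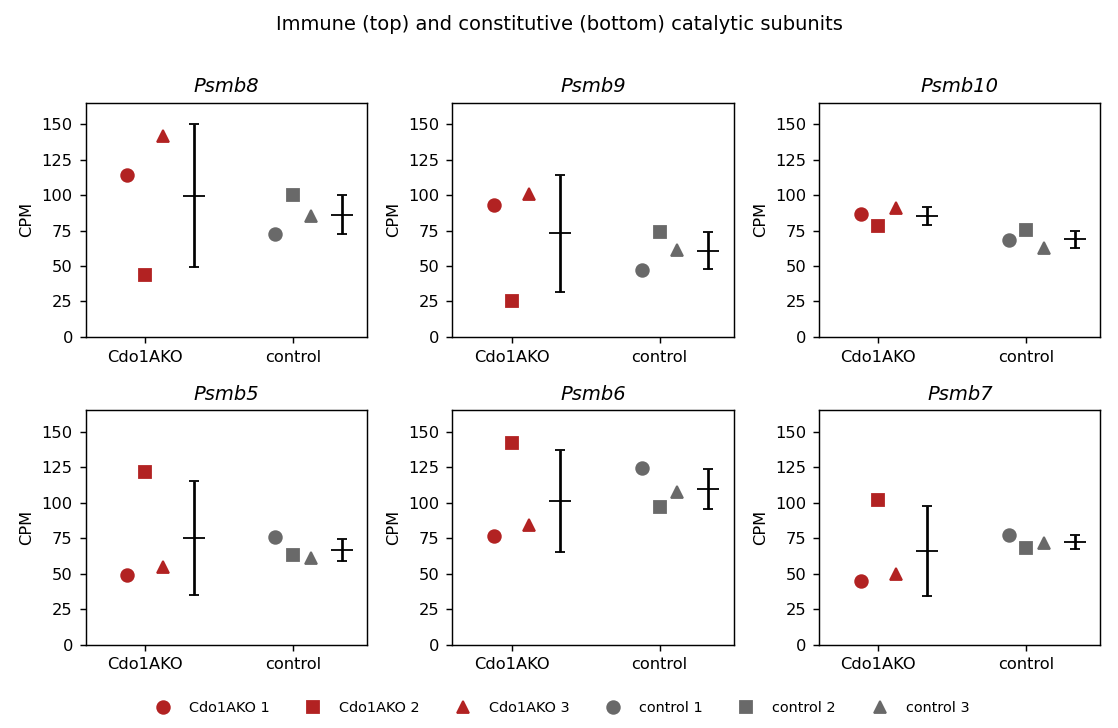
CPM of the immune catalytic subunits (top row) and of the constitutive subunits each replaces (bottom row), 1 point per library, with mean and SD beside each group. Cdo1AKO 2 is lowest for Psmb8 and Psmb9 at 43.4 and 25.7 CPM and highest for Psmb5, Psmb6 and Psmb7 at 121, 142 and 102 CPM.

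A ratio of exchange partners needs no scaling between libraries. Per kilobase of listed exon length, the Psmb8 to Psmb5 ratio was 0.760, 0.117 and 0.850 in Cdo1AKO 1 to 3 and 0.316, 0.524 and 0.458 in control 1 to 3. It spanned 7.24-fold within Cdo1AKO and 1.66-fold within control. The Psmb9 to Psmb6 ratio was 0.620, 0.0924 and 0.611 in Cdo1AKO and 0.194, 0.388 and 0.293 in control. The Psmb10 to Psmb7 ratio was 3.87, 1.54 and 3.64 in Cdo1AKO and 1.77, 2.22 and 1.75 in control. In all 3 pairs Cdo1AKO 1 and 3 had the highest ratios and Cdo1AKO 2 the lowest.

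The group means of the log2 ratios differed by -4.8e-04 for Psmb8 to Psmb5, by 0.22 for Psmb9 to Psmb6 and by 0.55 for Psmb10 to Psmb7. In an exact two-sided permutation test over the libraries the p-values were 1, 0.9 and 0.4, each 1 after adjustment over the 3 pairs. The smallest p that 3 libraries against 3 allow is 0.1. With any 1 library left out, the difference ranged from -0.50 (without Cdo1AKO 3) to 0.92 (without Cdo1AKO 2) for Psmb8 to Psmb5. It ranged from -0.24 (without Cdo1AKO 1) to 1.13 (without Cdo1AKO 2) for Psmb9 to Psmb6, where it was also below 0 without Cdo1AKO 3 or control 1. For Psmb10 to Psmb7 it stayed above 0, from 0.31 (without Cdo1AKO 1) to 0.98 (without Cdo1AKO 2). As a share of the summed per-length level of these 6 genes, the immune subunits made up 52.0, 22.2 and 52.4% in Cdo1AKO 1 to 3 and 31.5, 41.6 and 36.7% in control 1 to 3. The means were 42.2 ± 17.3% in Cdo1AKO and 36.6 ± 5.05% in control (SD, n = 3 each).

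Several lists of cell markers moved with one or the other form. Pan-leukocyte markers (6 genes, Ptprc and Cd52 among them) summed to 2255, 207 and 2266 CPM in Cdo1AKO 1 to 3 and 111, 1440 and 858 CPM in control 1 to 3. T cell markers (9 genes) summed to 1086, 17.4 and 1109 CPM in Cdo1AKO and 16.0, 387 and 229 CPM in control. B cell markers (8 genes, 1 of them at 0 in a library) summed to 746, 6.88 and 773 CPM in Cdo1AKO and 2.02, 1132 and 653 CPM in control. Libraries rich in these markers had the higher immune share within each group. Psmb8 was lower in Cdo1AKO 2 than in control 1, at 43.4 and 72.7 CPM, although the pan-leukocyte sum was higher in Cdo1AKO 2. The sum of macrophage markers (8 genes) varied less, with 880, 903 and 929 CPM in Cdo1AKO and 601, 798 and 685 CPM in control. Much of it was Lyz2, with 445, 303 and 476 CPM in Cdo1AKO and 180, 483 and 344 CPM in control. Cdo1AKO 2 was the highest library for 7 of the 8 markers, all but Lyz2, against 31.7% of all genes.

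Adipocyte markers (8 genes) summed to 19527, 45411 and 20917 CPM in Cdo1AKO 1 to 3 and 43007, 29853 and 35087 CPM in control 1 to 3. The core and regulatory particle subunits summed to 2372, 3831 and 2430 CPM in Cdo1AKO and 3312, 2762 and 2815 CPM in control. Both sums had Cdo1AKO 2 highest and Cdo1AKO 1 and 3 lowest, but the adipocyte markers did not move as 1 group. In Cdo1AKO 2, the fatty acid binding protein gene Fabp4 made up 22121 CPM of the sum, and the hormone gene Lep stood at 8301 CPM, against 1527 to 1655 CPM in control. Cdo1AKO 2 was the highest library for 3 of the 8 markers (Cidec, Fabp4 and Lep), while Adipoq, Plin1, Lipe, Pck1 and Pparg were highest in control 1, and Pck1 was lowest in Cdo1AKO 2. Relative to the mean of the controls, the median log2 level of the 8 markers was -0.76, 0.084 and -0.73 in Cdo1AKO 1 to 3 and 0.29, -0.31 and 0.025 in control 1 to 3, highest in control 1. Endothelial markers (4 genes) summed to 642, 1274 and 602 CPM in Cdo1AKO and 800, 633 and 758 CPM in control. Cdo1AKO 2 was the highest library for all 4 of them. The mitochondrially encoded mRNAs, a list kept as a sign of RNA quality, summed to 18479, 44655 and 19135 CPM in Cdo1AKO and 34697, 26834 and 34827 CPM in control, again highest in Cdo1AKO 2 and lowest in Cdo1AKO 1. The part of the cell markers and of RNA quality in the proteasome values was not tested. In bulk tissue, fewer cells of a type and less RNA per cell cannot be told apart.

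**Figure D4:**
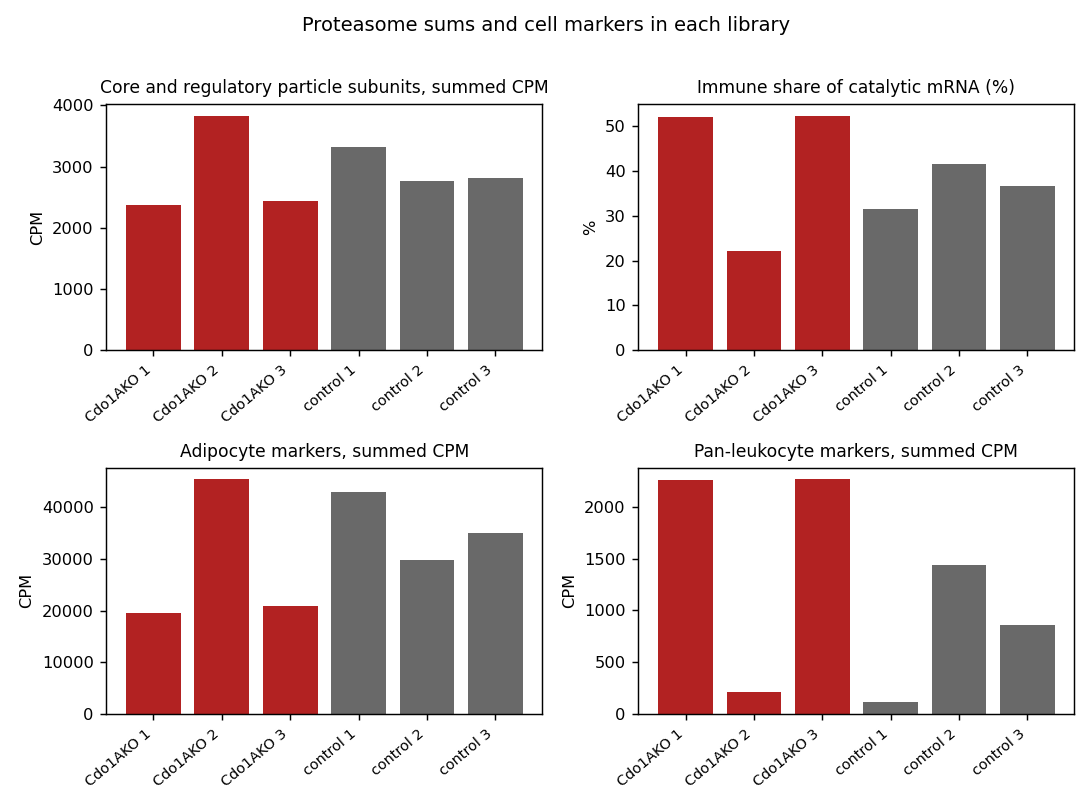
Summed CPM of the core and regulatory particle subunits and of adipocyte markers (left), and immune share of the catalytic subunits' per-length level with the pan-leukocyte markers (right), 1 bar per library. On the left Cdo1AKO 2 is the highest bar in both panels, at 3831 and 45411 CPM, although only 3 of the 8 adipocyte markers are highest there, and on the right Cdo1AKO 1 and 3 are the highest.

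The ATPases form the ring that unfolds substrates. Psmc6 had 60.5, 80.9 and 66.1 CPM in Cdo1AKO 1 to 3 and 88.6, 76.2 and 67.7 CPM in control 1 to 3 (-0.16 ± 0.17, edgeR adjusted p = 0.762). Psmc4 had 58.9, 94.6 and 57.1 CPM in Cdo1AKO and 63.9, 59.9 and 61.2 CPM in control (0.19 ± 0.22, adjusted p = 0.793). For all 6 ATPases Cdo1AKO 1 and 3 lay below every control, while Cdo1AKO 2 ranged from among the controls, as in Psmc6, to far above them, as in Psmc4.

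In the rest of the base, Psmd4 is a receptor for ubiquitin chains and Psmd1 and Psmd2 are its scaffolds. Psmd4 had 108, 161 and 109 CPM in Cdo1AKO 1 to 3 and 163, 123 and 138 CPM in control 1 to 3 (-0.16 ± 0.22, edgeR adjusted p = 0.809). Psmd1 had 57.7, 122 and 67.1 CPM in Cdo1AKO and 103.7, 87.7 and 89.7 CPM in control (-0.19 ± 0.30, adjusted p = 0.845). Both had low values in Cdo1AKO 1 and 3 and a Cdo1AKO 2 value near or above control 1.

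The lid, whose subunit Psmd14 removes ubiquitin from substrates, held the lowest log2 fold change of any member. Psmd11, a lid scaffold (at 80428615 to 80473248 on the plus strand of chromosome 11), had 54.7, 75.2 and 57.8 CPM in Cdo1AKO 1 to 3 and 87.6, 72.3 and 79.2 CPM in control 1 to 3. Only Cdo1AKO 2 reached the controls' range, and the log2 fold change of -0.35 ± 0.17 did not pass (edgeR adjusted p = 0.553). Psmd7, the partner of Psmd14, had 68.6, 108 and 68.1 CPM in Cdo1AKO and 113, 82.7 and 93.2 CPM in control (-0.24 ± 0.24, adjusted p = 0.745). Of the 8 lid genes, 4 had a log2 fold change above 0, led by Psmd8 with 0.24.

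The activators did not follow a single pattern. Psme1, the alpha subunit of the interferon-inducible activator PA28 (at 55578123 to 55581529 on the plus strand of chromosome 14), had 170.01, 103 and 167 CPM in Cdo1AKO 1 to 3 and 104, 121 and 104 CPM in control 1 to 3. As for Psmb8, Cdo1AKO 1 and 3 lay above every control and Cdo1AKO 2 below them (0.42 ± 0.23, edgeR adjusted p = 0.582). Psme2, its beta subunit (at 55587441 to 55591113 on the minus strand of chromosome 14), had 83.0, 119.9 and 121 CPM in Cdo1AKO and 84.9, 80.3 and 71.3 CPM in control (0.45 ± 0.19, adjusted p = 0.486). Here Cdo1AKO 2 was about as high as Cdo1AKO 3, and Cdo1AKO 1 lay within the controls' range.

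Psme2b, named after its values were seen, had 50.7, 40.3 and 39.9 CPM in Cdo1AKO 1 to 3 and 30.7, 34.8 and 31.2 CPM in control 1 to 3 (0.44 ± 0.15, edgeR adjusted p = 0.429). Its groups did not overlap. It is a copy of Psme2 whose reads cannot be fully told from those of Psme2: of its annotated 50-base stretches, 68.7% also occur in Psme2 transcripts. Psme3, which forms the nuclear activator PA28 gamma, had 80.9, 105 and 79.4 CPM in Cdo1AKO and 96.3, 97.6 and 98.8 CPM in control (-0.14 ± 0.15, adjusted p = 0.764). Psme4, or PA200, had 91.7, 135 and 88.4 CPM in Cdo1AKO and 103.6, 88.4 and 92.7 CPM in control (0.15 ± 0.20, adjusted p = 0.817). Both were highest in Cdo1AKO 2. The inhibitor Psmf1, or PI31, had 41.4, 39.9 and 36.7 CPM in Cdo1AKO and 34.2, 35.3 and 37.0 CPM in control (0.15 ± 0.13, adjusted p = 0.704), a narrow range in both groups.

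Assembly factors, which help to build the particles and leave them, held the highest log2 fold change of any member. Psmd10, known as gankyrin, a chaperone of the ATPase ring (at 140948429 to 140956728 on the minus strand of chromosome X), had 16.7, 20.97 and 21.6 CPM in Cdo1AKO 1 to 3 and 14.2, 15.1 and 13.8 CPM in control 1 to 3. Its groups did not overlap, with means of 19.8 ± 2.63 CPM in Cdo1AKO and 14.4 ± 0.669 CPM in control (SD, n = 3 each). The log2 fold change of 0.46 ± 0.17 did not pass over all genes (edgeR adjusted p = 0.435). Psmg3, a core chaperone, had 5.25, 7.85 and 6.64 CPM in Cdo1AKO and 4.97, 5.62 and 4.34 CPM in control (0.40 ± 0.25, adjusted p = 0.617). Of the 7 assembly factors 6 had a log2 fold change above 0 (85.7%, against 56% of all genes), with Psmg1 the exception at -0.075.

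The comparison was repeated within the 4 libraries that held lymph node transcripts, Cdo1AKO 1 and 3 and control 2 and 3. There 6 of 48 members passed (12.5%), 2 higher and 4 lower, against 15.3% of all genes, 7.65% higher and 7.7% lower. Psmb7 was lower (log2 fold change -0.56 ± 0.11, edgeR adjusted p = 0.0174), as were Psmd1 (-0.51, adjusted p = 0.0264), Psmd11 (-0.43, adjusted p = 0.0344) and the ATPase Psmc5 (-0.38, adjusted p = 0.0435). Psme1 was higher (0.58 ± 0.12, adjusted p = 0.0204), as was Psmb9 (0.52, adjusted p = 0.0333). Psmb8 (0.45, adjusted p = 0.0717) and Psmb10 (0.36, adjusted p = 0.0833) did not pass in these 4 libraries. Before adjustment, 24 members were under 0.05 in that fit, against 32% of all genes: 8 higher, against 16.2% of all genes, and 16 lower, against 15.7%. Leaving out Cdo1AKO 2 alone gave 0 calls among members and 0 among all 17255 genes tested. There 22 members were under 0.05 before adjustment, against 27.3% of all genes: 6 higher, against 11.8%, and 16 lower, against 15.5%. The 4-library fit rests on the unusually alike libraries Cdo1AKO 1 and 3. Its share of members called, both directions together, lay below that of all genes. The share of its members under 0.05 before adjustment lay above that of all genes, through the members lower in Cdo1AKO. These shares carry no test. Cell markers also differed within these 4 libraries: the adipocyte sum was 19527 and 20917 CPM in Cdo1AKO and 29853 and 35087 CPM in control, and the pan-leukocyte sum 2255 and 2266 CPM in Cdo1AKO and 1440 and 858 CPM in control, and their part in these calls was not tested. The 2 libraries without lymph node transcripts, 1 per group, allow no test.

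With all 6 libraries and a term for lymph node transcripts, 0 members passed, against 4.13% of all genes. Before adjustment 5 members were under 0.05, against 22.9% of all genes: Psme2b, Psmd10, Psme2 and Psmb10 higher, against 12.8% of all genes, and Psmd11 lower, against 10.1%.

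Per kilobase of listed exon length, values differed widely between subunits that the core holds in equal number. Among the 14 tested core genes they ran from 18.6 CPM per kilobase for Psma3 to 84.9 for Psma6 in Cdo1AKO, and from 19.8 for Psma3 to 91.6 for Psma6 in control. Psmb5 was the next highest, with 83.6 in Cdo1AKO and 74.1 in control. The immune subunits lay within that range, with 36.4, 19.99 and 49.998 CPM per kilobase for Psmb8, Psmb9 and Psmb10 in Cdo1AKO and 31.5, 16.6 and 40.3 in control, of which only Psmb9 in control was under the lowest core gene. The listed length joins the exons of all transcripts of a gene, so it overstates some transcripts. It is 3894 bases for Psma3 and 1234 for Psma6, whose means before division by length were 72.4 and 105 CPM in Cdo1AKO. The part of listed length in the spread per kilobase was not tested. Psmc3ip averaged 1.83 ± 0.152 CPM in Cdo1AKO and 1.48 ± 0.310 CPM in control (SD, n = 3 each).

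Genes that act with the immunoproteasome in antigen processing were read from a list of 10, of which 9 were tested. Of these 8 had a log2 fold change above 0 (88.9%, against 56% of all genes), and 0 passed. Tapbp, the tapasin gene of the peptide loading complex, had 339, 350.5 and 287 CPM in Cdo1AKO 1 to 3 and 242, 222 and 249 CPM in control 1 to 3, without overlap (0.45 ± 0.15, edgeR adjusted p = 0.417). The peptide-trimming enzyme Erap1 had 75.2, 53.9 and 74.5 CPM in Cdo1AKO and 91.5, 76.1 and 81.9 CPM in control, lower without overlap (-0.29 ± 0.18, edgeR adjusted p = 0.617). Of the 9 genes, 1 was thus higher and 1 lower without overlap, against 8.87% and 9.73% of all genes. Tap1, named after its values were seen, had 226, 43.2 and 203 CPM in Cdo1AKO and 71.9, 139 and 113 CPM in control. Irf1, a transcription factor of interferon responses also named afterwards, had 148, 63.5 and 149 CPM in Cdo1AKO and 75.0, 119 and 92.1 CPM in control. Both were lowest in Cdo1AKO 2 and highest in Cdo1AKO 1 and 3, like Psmb8 and Psmb9. Reads of Psmb9 and Tap1 from the 212 shared bases cannot be told apart without strand.

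Proteasome partners and regulators outside the named families were read from a list of 24, of which 23 were tested. Of these 16 had a log2 fold change below 0 and 7 above 0 (30.4%, against 56% of all genes above 0), with a median of -0.12. Before adjustment 2 of the 23 were under 0.05, against 10.4% of all genes, and 0 passed. Ddi2, the protease that activates Nfe2l1, had 75.3, 66.1 and 74.0 CPM in Cdo1AKO 1 to 3 and 106.6, 80.9 and 92.8 CPM in control 1 to 3 (-0.38 ± 0.15, edgeR adjusted p = 0.474). Nfe2l2, the oxidative stress factor also known as NRF2, had 66.4, 70.4 and 69.5 CPM in Cdo1AKO and 99.6, 76.2 and 87.3 CPM in control (-0.35 ± 0.14, adjusted p = 0.480). Ecpas, a proteasome adaptor, had 101, 106 and 97.05 CPM in Cdo1AKO and 137, 113 and 128 CPM in control (-0.31 ± 0.13, adjusted p = 0.503). In these 3 of the 23 genes, which were picked for the smallest p, every Cdo1AKO library lay below every control, as for 9.73% of all genes. Nfe2l1, which drives proteasome gene transcription when activity falls short, was named after its values were seen. It had 437, 878 and 462 CPM in Cdo1AKO and 832, 643 and 739 CPM in control, highest in Cdo1AKO 2, as were 24 of the 31 subunits (-0.32 ± 0.32, adjusted p = 0.748).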

How the data were processed

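RNA sequencing of 6 samples (3 Cdo1AKO, 3 control) was analysed from 1 table. It holds raw counts per gene that the authors deposited, as its headers name them. The submitters' processing notes name mm10, featureCounts 1.5.0-p3, HISAT2 2.0.5 and DESeq2 1.20.0, with no order or role. FPKM values deposited by the authors were not used. Titles gave the groups and numbers; a WT column stands for the control title of the same number, by the genotype label. Per the labels' protocols, TRIzol extraction was followed by NEBNext Ultra library preparation. With the strand setting not given in the sources used here, overlapping genes may share reads.

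Counts were filtered with edgeR's filterByExpr, scaled with TMM and tested across 16623 genes with edgeR 4.0.16 in R 4.3.3 (quasi-likelihood fit with no term but group, Benjamini-Hochberg adjustment over all genes, threshold 0.05), after a check on simulated counts. CPM uses TMM-scaled library sizes, SE is that of the log2 fold change, while SD covers the 3 libraries of a group. DESeq2 1.42.0, limma-voom from limma 3.58.1, other scalings and filters, a replicate block, a lymph node term (median B cell and lymph node stroma marker above 5 CPM) and each library left out were alternatives. Ratios were tested with scipy 1.17.1.

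The members and lists were chosen with earlier results of these data known. Named genes were the exchange pairs, the activators, Psmf1 and Cdo1 whatever their result, the 2 members of smallest p in each other role, any member with adjusted p under 0.05 in edgeR, DESeq2 or the authors' deposited table, and 3 genes of smallest p in each related list; others are said to be named after their values were seen. Some genes that this rule or these lists hold are not reported here. Where a marker symbol names more than 1 gene, the copy with more counts was used. Exons, and thus shared exon bases, come from GENCODE M21 on the same build, whose gene coordinates equalled the table's for 48 of 50 members. Whether the samples of a group are separate animals is not stated in the labels; the p-values reflect how far these samples vary, and that may be technical.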

Additional observations from a re-analysis of the deposited data

How the results depend on the processing

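The count of 0 genes called by edgeR became 274 with DESeq2, 686 with the lymph node term and 2617 within the 4 libraries with lymph node transcripts, and was 0 under the other scalings, filters, limma-voom, the replicate block and without each library. For proteasome members the count of 0 became 6 in those 4 libraries and stayed 0 elsewhere. Cdo1 passed with the lymph node term (log2 fold change -1.76) and in those 4 libraries (-2.05). In the 4 libraries the log2 fold change reversed for 12 of 48 members, all to below 0, among them the named genes Psmb5 (-0.26), Psmc4 (-0.066) and Psme4 (-0.012), and the regulatory median turned to -0.18. Without scaling beyond the totals, 3 members reversed, among the named genes Psmb4 (0.032). That scaling put the median of all genes at 0.13, against 0.058.

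With 1 library left out, 1 to 13 of 48 members reversed. Among the named genes, log2 fold changes then ranged from -0.13 to 0.57 for Psmb8, -0.033 to 0.67 for Psmb9, -0.36 to 0.40 for Psmb5, -0.44 to 0.049 for Psmb6, -0.61 to 0.073 for Psmb7, -0.075 to 0.26 for Psme4, -0.27 to 0.011 for Psma3, -0.19 to 0.066 for Psmb4, -0.088 to 0.32 for Psmc4, -0.59 to 0.015 for Psmd1 and -0.51 to 0.0036 for Psmc5, so each reversed: Psmb8, Psmb9 and Psma3 without Cdo1AKO 3, Psmb5, Psme4 and Psmc4 without Cdo1AKO 2, Psmb6, Psmd1 and Psmc5 without Cdo1AKO 1, Psmb7 without Cdo1AKO 1 or 3, and Psmb4 without either of these or control 1. The regulatory median ranged from -0.22 to 0.17. The causes were not tested. The other members given with their CPM in each of the 6 libraries, Psmb10, Psme1, Psme2, Psme2b, Psmd10, Psmd11 and Psmd7 among them, kept their direction in each of the fits tried. Of the members named by their fold change alone, Psmd8 turned to -0.054 without Cdo1AKO 2 and Psmg1 to 0.020 without control 1.

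Replicate numbers were not taken to pair the samples. Same-numbered libraries correlated at -0.66, -0.66 and 0.42 in their deviations from the group means. Cdo1AKO 2 and control 1, the libraries nearly without lymph node transcripts, correlated at 0.69. With such differences between libraries, these values cannot show whether samples were paired. With the replicate block 0 members and 0 genes passed, and Psmb10 had 0.31 and Psmd10 0.45. With 3 libraries per group, the SE of the log2 fold change ran up to 0.50 among members, for Psmb9, which limits what could be called.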

Other observations

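Ubb, a gene that encodes ubiquitin as a chain of repeats, had 778, 1074 and 626 CPM in Cdo1AKO 1 to 3 and 839, 640 and 687 CPM in control 1 to 3. Its highest value lay in Cdo1AKO 2, as for most proteasome subunits. Rps27a, which encodes ubiquitin fused to a ribosomal protein, had 413, 207 and 382 CPM in Cdo1AKO and 221, 281 and 105 CPM in control. Its fold change was the largest in the list of partners, with a log2 value of 0.72 ± 0.43 (SE, edgeR adjusted p = 0.608), and its high values lay in Cdo1AKO 1 and 3. Rps27a has processed copies in the genome, so its reads may be split between loci.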
